A study of Homo sapiens with 20 samples.

Results

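Butyrophilins are surface proteins of the immunoglobulin superfamily, and some of them are read by γδ T cells on tumour cells. The 6 genes described here are BTN2A1, BTN2A2, BTN3A1, BTN3A2, BTN3A3 and BTNL9, taken by symbol from an mRNA-seq table of 36076 genes. All 6 symbols were found once each. The table covers 6 established human lines of lung cancer (H1299, H1792, PC9, A549, CL1-0 and CL1-5), each with 1 Mock library (phosphate-buffered saline) and 1 library after decitabine (DAC), 12 libraries in all. DAC is a cytosine analog that traps DNA methyltransferases on DNA. Cells received 100 nM over 72 hours and then grew for 3 days without drug. CL1-5 is a more invasive line selected from CL1-0, and the others are unrelated lines. Omni-ATAC-seq peak lists, which mark DNA open to a transposase, come from 8 further libraries, Mock and DAC of H1299, PC9, CL1-5 and A549. All samples are cultures of established tumour lines with no T cells added, so each gene is measured in the target cell alone.

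The γδ T cells with a Vγ9Vδ2 receptor respond to phosphoantigens, small pyrophosphates of isoprenoid synthesis. BTN3A1 binds phosphoantigens with its intracellular domain and works together with BTN2A1, whose extracellular part contacts the Vγ9 chain. BTN3A2 lacks that intracellular domain and helps BTN3A1 to reach the surface, and BTN3A3 is their close paralog. BTN2A2 is known as an inhibitor of T cell activation, and BTNL9 is a butyrophilin-like protein whose receptor is less clear. Interferon and the transactivator NLRC5, which acts through the X box and CCAAT box of MHC class I promoters, are known inducers of BTN3A genes in other cells. Protein and surface levels were not analysed here.

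Between 22234485 and 25303899 reads per library were recovered on genes outside H1299, and 59735913 (Mock) and 52634234 (DAC) in H1299. Among genes with 1 to 20 reads, an even read number was found for 85.5% in Mock H1299 and 81.9% in DAC H1299, while the range elsewhere was 39.2% to 41.5%. Reads of H1299 were therefore halved before any counting interval was made. Summed FPKM (fragments per kilobase of transcript, scaled to the depth of the library) of 7 T cell markers was at most 0.612 in Mock and 1.13 after DAC. Summed FPKM of 5 epithelial markers ranged from 0.986 in Mock CL1-0 to 3015 in Mock A549, and CL1-0 after DAC stood at 3.05, so CL1-0 is nearly without these markers. All 5 epithelial markers had a mean log2 change above 0 over the 5 lines (median 0.80, and 0.30 without H1299), from CDH1 at 0.31 to EPCAM at 1.69. They did not rise together in each line, and KRT8 was higher in 2 lines and lower in 3. Mean FPKM was lower after DAC for KRT8, KRT18 and KRT19 and higher for EPCAM and CDH1. EPCAM passed an unadjusted p under 0.05 in limma (not without CL1-5, and not with voom). Of the T cell markers 2 passed the filter on low values, TRAC at 0.14 and CD3D at 1.18, and CD3D passed the same threshold (not without H1299, and below the filter without CL1-5 or PC9). Their part in the results was not tested. The Omni-ATAC libraries labelled CL1-5 and PC9 go against their labels. Of 138 genes with an FPKM of at least 5 in Mock PC9 and under 0.1 in Mock CL1-5, 95.7% had a peak near the start in Mock DNA labelled CL1-5 and 53.6% in Mock DNA labelled PC9. For 78 genes of the opposite pattern the shares are 62.8% and 88.5%. They are called the libraries labelled CL1-5 and PC9 throughout, and means over the 4 lines are the same whichever way they are named.

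Of the 6 genes, 5 form a cluster on the short arm of chromosome 6, next to histone genes, all on the plus strand and all protein-coding. In GRCh37, the build of the files, the order is BTN3A2 (ENSG00000186470, 26365387 to 26378548), BTN2A2 (ENSG00000124508, 26383324 to 26395102), BTN3A1 (ENSG00000026950, 26402465 to 26415436), BTN3A3 (ENSG00000111801, 26440700 to 26453643) and BTN2A1 (ENSG00000112763, 26458132 to 26476849), a span of 111463 bp. BTNL9 (ENSG00000165810) lies alone on chromosome 5 from 180467225 to 180488521. The genes are near copies of each other in places. Of all windows of 100 bases in their annotated transcripts, 5.60% of BTN3A3, 4.82% of BTN3A2 and 2.76% of BTN3A1 also occur in another gene's transcripts, against 0.662% of BTN2A1, 0.355% of BTN2A2 and 0% of BTNL9. Reads from such stretches could be counted for either gene, so values within the BTN3A trio are less certain than those between families.

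The promoter table of RefSeq holds 250 bases before and 50 after the start of 4 of the 6 genes, in build GRCh38.p14, and BTN2A2 and BTN3A1 are missing from it. BTN3A2 has a second entry there (chr6:26367928-26368227) that holds no X box and no CCAAT box, and its stretch shown here is from the other entry. The promoter stretches of BTN3A2, BTN3A3 and BTN2A1 are shown because they share one motif. Capitals mark an X box (searched on both strands as CCNAGCAAC) and each CCAAT box that begins within 60 bases after the start of the X box. BTN3A2 and BTN3A3 hold 1 such box and BTN2A1 holds 2, of which the nearer lies on the other strand and reads ATTGG.

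BTN3A2, chr6:26365091-26365197, plus strand: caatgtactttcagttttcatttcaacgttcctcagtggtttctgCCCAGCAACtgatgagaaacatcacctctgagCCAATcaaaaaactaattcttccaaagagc

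BTN3A3, chr6:26440393-26440503, plus strand: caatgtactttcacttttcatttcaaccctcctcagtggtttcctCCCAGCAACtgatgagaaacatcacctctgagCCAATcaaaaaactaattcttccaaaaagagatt

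BTN2A1, chr6:26457794-26457913, plus strand: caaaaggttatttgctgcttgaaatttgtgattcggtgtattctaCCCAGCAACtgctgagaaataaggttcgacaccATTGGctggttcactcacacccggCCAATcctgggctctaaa

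The X box reads the same 9 letters in all 3 genes. It lies 62, 66 and 116 bases before the start of the promoter table in BTN3A2, BTN3A3 and BTN2A1. That start lies downstream of the gene start given above, so each X box is nearer to the gene start than these distances. The X box is counted here by its letters alone. It occurs in 1.76% of 35116 promoters of this table, and an X box with a CCAAT box within 60 bases after it occurs in 0.228%. BTN3A2 and BTN3A3 are equal at 100 of 107 bases (93.5%) of the stretch, whereas BTN2A1 equals BTN3A2 at 41.1% and BTN3A3 at 36.9% when laid side by side without gaps. The core of an interferon-stimulated response element (GAAA repeated after any 2 bases, on either strand) was found in the BTN3A3 promoter and not in the other matched ones, and 3.57% of all promoters hold it. CpG sites, the sites DNA methyltransferases act on, number 5 in BTN3A2 (1 in its second entry), 3 in BTN3A3, 7 in BTN2A1 and 6 in BTNL9. Over all promoters the median is 14 and the quartiles are 4 and 28. These counts are thus below the median, and only BTN3A3 and the second BTN3A2 entry lie below the lower quartile. A motif match is a description of letters and not a bound site.

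BTN2A1 had the highest FPKM of the 6 genes in 5 of 6 Mock lines, and in H1792 BTN3A1 and BTN3A2 stood above it. Its Mock FPKM was 18.7 in H1299, 15.9 in CL1-5, 12.6 in CL1-0, 7.93 in H1792, 6.28 in A549 and 4.51 in PC9. Each step of that order exceeded counting error. BTN2A2 was lower, with a Mock FPKM of 8.83 in H1299 and between 1.18 (PC9) and 3.11 (CL1-5) in the other 5 lines. CL1-0 and H1792, and likewise A549 and PC9, could not be told apart for BTN2A2 within counting error. Both BTN2A genes were thus at their highest in H1299, and their log2 levels over the 12 libraries had a Pearson r of 0.85, which is a description over libraries that pair by line.

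The BTN3A trio followed another order, with H1792 at the top. Mock FPKM of BTN3A1 was 9.43 in H1792, 5.03 in H1299, 4.50 in CL1-5, 3.07 in PC9, 2.09 in A549 and 2.02 in CL1-0. For BTN3A2 the values in the same lines were 11.7, 4.78, 3.99, 2.56, 2.19 and 1.50. For BTN3A3 they were 6.28, 3.56, 1.58, 1.73, 0.709 and 0.427. H1792 was highest and CL1-0 lowest for each of the 3 genes, and the neighbours within counting error were A549 and CL1-0 for BTN3A1 and PC9 and CL1-5 for BTN3A3. Levels of BTN3A1, BTN3A2 and BTN3A3 over the 12 libraries had pairwise Pearson r of 0.93 to 0.94, whereas r with BTN2A1 was 0.00 to 0.15.

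BTNL9 behaved unlike the cluster genes and was listed at 0 in Mock PC9 and Mock H1792. Its Mock FPKM was 3.03 in CL1-0, 1.91 in CL1-5, 0.679 in A549 and 0.132 in H1299. CL1-0, the line with the lowest BTN3A levels, therefore had the highest BTNL9 level, and Pearson r between BTNL9 and BTN3A3 over the 12 libraries was -0.82. After DAC, PC9 and H1792 had 3 reads each on BTNL9, which is at the floor of 3 reads. Both libraries of PC9 and of H1792 thus enter that r at or below the floor for BTNL9, and libraries pair by line.

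**Figure D1:**
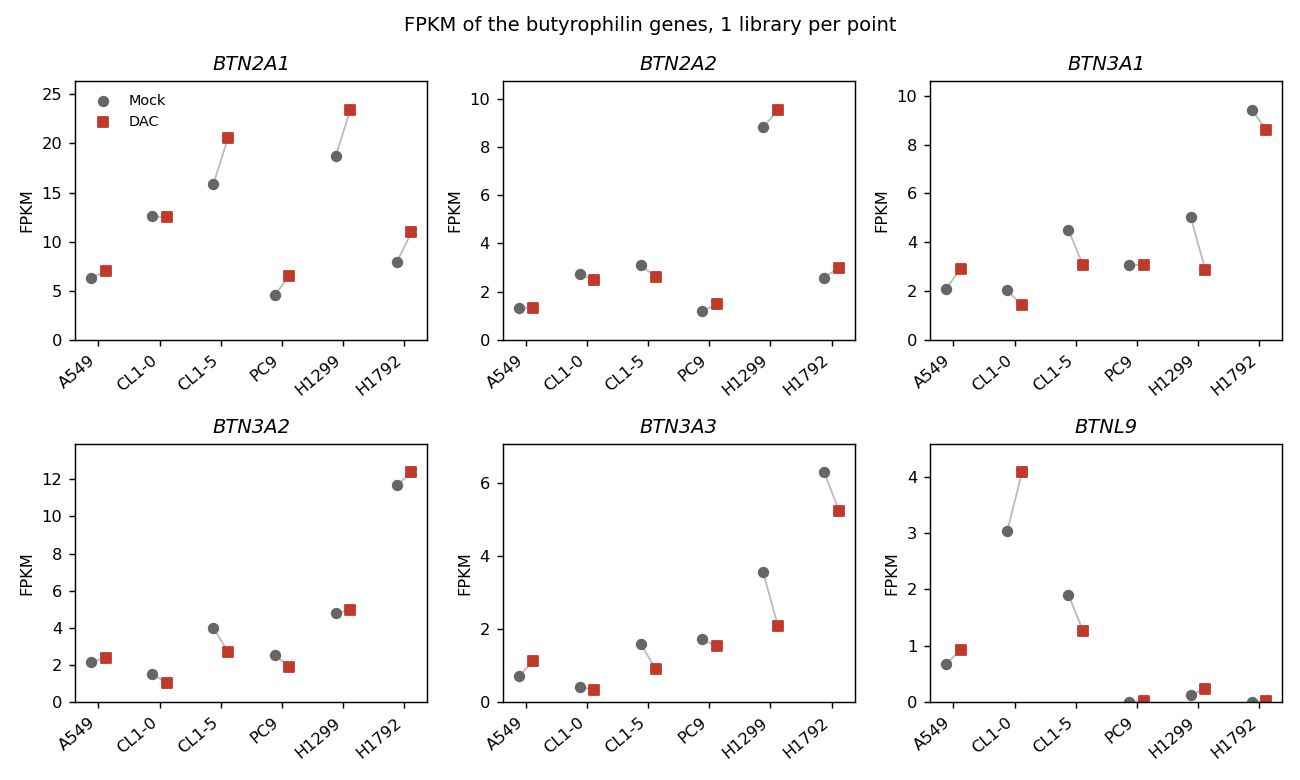
FPKM (vertical axis, linear, starting at 0) of each butyrophilin gene in the 6 cell lines (horizontal axis), with 1 point per library, grey circles for Mock and red squares for DAC joined within a line. H1299 stands highest for BTN2A1 and BTN2A2, H1792 for the BTN3A trio and CL1-0 for BTNL9, and the distance between lines is larger than the step between Mock and DAC in most panels.

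CL1-5 had more of each BTN3A gene than its parental line CL1-0. In Mock the CL1-5 to CL1-0 ratio of FPKM was 2.23 for BTN3A1 (95% counting interval 1.93 to 2.57), 2.66 for BTN3A2 (2.30 to 3.08) and 3.71 for BTN3A3 (2.77 to 5.05). BTN2A1 and BTN2A2 were closer, at 1.26 (1.17 to 1.36) and 1.14 (1.00 to 1.30). BTNL9 went the other way, at 0.630 (0.540 to 0.735). After DAC the ratios were 2.17, 2.57 and 2.77 for the BTN3A genes, 1.65 for BTN2A1 and 0.311 for BTNL9. There is 1 library on each side, so these intervals cover counting error only and compare libraries.

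Across the 5 lines the study compared by mRNA-seq (H1792 apart), none of the 6 genes rose or fell at an adjusted p under 0.05 in limma, where the background was 0.119% of 22603 genes called higher and 0% called lower. None passed an unadjusted p under 0.05 in this fit either, against 8.07% of genes higher and 4.4% lower. That holds for the fit as reported only. BTN2A1, just above that threshold here, passed it in 6 of 15 alternative fits (with H1792 included, without CL1-0, with either other pseudocount, with no filter and after rescaling to a common sum). BTN3A1 and BTN3A3 passed it without A549, and BTN3A2 after quantile normalization. The adjusted p of the 6 genes was 0.286 or more in each of these fits (limma). The test compares Mock and DAC with the line as a block, on the log2(FPKM + 0.1) scale, which understates changes of genes with low FPKM, and n is the number of lines. All 6 genes passed the filter on mean FPKM (0.1 or more). On this scale 3 of the 6 log2 changes were above 0 and 3 below, with a median of -0.12, beside a median of 0.07 over all genes tested.

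BTN2A1, the partner that touches the γδ receptor, came closest to the threshold. Its FPKM went from 6.28 to 6.95 in A549, from 12.6 to 12.5 in CL1-0, from 15.9 to 20.6 in CL1-5, from 4.51 to 6.49 in PC9, from 18.7 to 23.4 in H1299 and from 7.93 to 10.9 in H1792. It was higher after DAC in 5 of 6 lines, and in 6 of 6 after rescaling to a common sum or quantile normalization, where 15.8% of all genes were higher in at least 5 of 6 lines as deposited. The ratio of DAC to Mock exceeded counting error in 4 lines, at 1.44 (95% counting interval 1.26 to 1.65) in PC9, 1.38 (1.25 to 1.52) in H1792, 1.30 (1.21 to 1.38) in CL1-5 and 1.25 (1.18 to 1.33) in H1299. Mean FPKM over the 5 lines was 11.6 ± 6.08 in Mock and 14.0 ± 7.76 after DAC (SD, n = 5), and the groups overlap. The log2 fold change was 0.27 (standard error 0.12, 95% confidence interval -0.00 to 0.54, adjusted p = 0.406, limma). By an exact two-sided sign-flip permutation test over single values, p was 0.125 with 5 lines and 0.0625 with 6, where the smallest possible values are 0.0625 and 0.03125.

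BTN2A2, known to restrain T cells, showed no common direction. FPKM went from 1.18 to 1.48 in PC9, from 8.83 to 9.57 in H1299, from 2.58 to 2.996 in H1792 and from 1.30 to 1.33 in A549. It went from 2.73 to 2.47 in CL1-0 and from 3.11 to 2.59 in CL1-5. The log2 fold change over 5 lines was 0.01 (standard error 0.14, 95% confidence interval -0.31 to 0.33, adjusted p = 0.977, limma), and its sign changes with the scaling and with the lines kept.

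BTN3A1, the phosphoantigen binder, was lower after DAC in 5 of 6 lines (4 of 6 after rescaling to a common sum), where 9.27% of all genes were lower in at least 5. FPKM went from 5.03 to 2.86 in H1299, a ratio of 0.569 (95% counting interval 0.504 to 0.641), from 4.50 to 3.04 in CL1-5, a ratio of 0.676 (0.596 to 0.765), and from 2.02 to 1.40 in CL1-0, a ratio of 0.692 (0.577 to 0.829). In H1792 it went from 9.43 to 8.60, and in PC9 it stood at 3.07 and 3.05. A549 was the exception, with FPKM going from 2.09 to 2.91 (ratio 1.39, interval 1.18 to 1.63). Mean FPKM was 3.34 ± 1.37 in Mock and 2.65 ± 0.705 after DAC (SD, n = 5), and limma gave a log2 difference of -0.28 (standard error 0.20, adjusted p = 0.571). Without A549 the log2 fold change was -0.46 and without H1299 it was -0.15, and no adjusted p passed the threshold in either case.

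BTN3A3 followed BTN3A1 from line to line, with a Pearson r of 0.94 between their log2 changes over the 6 lines, a description over lines that share their libraries. Its FPKM went from 0.709 to 1.12 in A549, from 0.427 to 0.328 in CL1-0, from 1.58 to 0.910 in CL1-5, from 1.73 to 1.53 in PC9, from 3.56 to 2.09 in H1299 and from 6.28 to 5.24 in H1792. Like BTN3A1 it was higher in A549 and lower in the other 5 lines, under each of the 3 scalings. The ratio exceeded counting error in A549 (1.58, 95% counting interval 1.21 to 2.07), CL1-5 (0.574, 0.459 to 0.715), H1299 (0.588, 0.511 to 0.676) and H1792 (0.834, 0.755 to 0.922). The log2 fold change over 5 lines was -0.27 (standard error 0.23, adjusted p = 0.621, limma), and it was -0.49 without A549, -0.15 without CL1-5 and -0.15 without H1299.

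BTN3A2, the member without the phosphoantigen-binding domain, parted from its paralogs most widely in H1299, though not there alone. There it stood at an FPKM of 4.78 before and 4.98 after DAC (ratio 1.04, 95% counting interval 0.951 to 1.14), while BTN3A1 and BTN3A3 were both lower. It went from 1.50 to 1.06 in CL1-0, from 3.99 to 2.73 in CL1-5 and from 2.56 to 1.92 in PC9, each beyond counting error. In A549 it went from 2.19 to 2.37 and in H1792 from 11.7 to 12.4, both within counting error. BTN3A1 and BTN3A3 were higher beyond counting error in A549. In H1792 they were lower beyond it, at 0.913 (0.842 to 0.989) and 0.834 (0.755 to 0.922). In PC9 the ratio of BTN3A2 was 0.750 (0.643 to 0.873), beside 0.994 (0.859 to 1.15) for BTN3A1. The log2 fold change of BTN3A2 over 5 lines was -0.24 (standard error 0.16, adjusted p = 0.528, limma). BTN3A2 was lower in 3 of 6 lines (4 of 6 after either other scaling).

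BTNL9 was higher after DAC in A549, from 0.679 to 0.931, in CL1-0, from 3.03 to 4.07, and in H1299, from 0.132 to 0.238. After quantile normalization its log2 change was 0.01 in A549 and -0.01 in H1299. BTNL9 was lower in CL1-5, from 1.91 to 1.27, a ratio of 0.663 (95% counting interval 0.545 to 0.803). The parental line and its invasive derivative thus differ in direction for BTNL9, with 1 library each and no test of that difference. The log2 fold change over 5 lines was 0.22 (standard error 0.22, adjusted p = 0.677, limma). It was 0.42 without CL1-5, 0.14 without H1299 and 0.00 after quantile normalization, and between 0.07 and 0.56 with pseudocounts of 1 and 0.01, so its size is not fixed by these data.

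**Figure D2:**
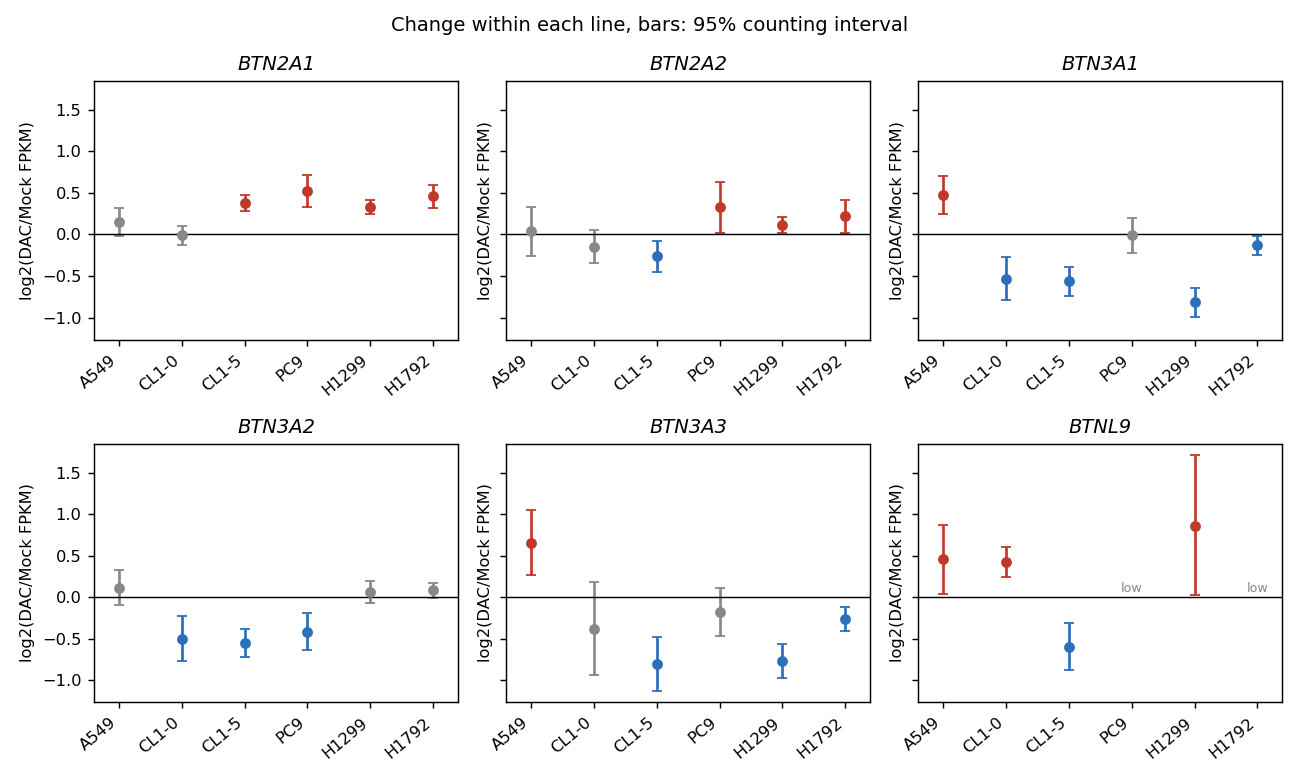
Log2 ratio of DAC to Mock FPKM (vertical axis) of each gene in each line (horizontal axis), with bars for the 95% counting interval, coloured red where the interval lies above 0, blue where it lies below and grey where it covers 0. "Low" marks BTNL9 in PC9 and H1792, with at most 3 reads. BTN2A1 lies at or above 0 in every line within its interval, and BTN3A1 and BTN3A3 lie below 0 in CL1-5 and H1299 and above 0 in A549.

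Read by line, no gene was 2-fold changed in any line on the log2(FPKM + 0.1) scale. Over all genes, 15.5% were at least 2-fold higher in A549, 7.6% were in CL1-0, 7.25% in CL1-5, 10.2% in PC9, 8.18% in H1299 and 10.3% in H1792. The share at least 2-fold lower was 6.69%, 2.14%, 5.05%, 3.1%, 3.15% and 5.79% in the same order.

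A549 was the line in which the whole group was higher. There 6 of 6 genes were higher by any amount (background 53.5% higher and 42.2% lower), with BTN3A1, BTN3A3 and BTNL9 beyond counting error (background 30% higher and 26% lower). After quantile normalization BTN2A2 and BTN3A2 changed sign in A549, and BTNL9 stood at a log2 change of only 0.01. CL1-5 was nearly the opposite, with 5 of 6 lower (background 46.7%, with 49.2% higher), all 5 beyond counting error (background 20.6%), BTN2A1 higher beyond it (background 22.7%), and no sign changed by the scaling. In CL1-0, 5 of 6 were lower (background 43.8%, with 50.5% higher), BTN3A1 and BTN3A2 beyond counting error (background 22%) and BTNL9 higher beyond it (background 20%), and BTN2A1 and BTN2A2 changed sign after rescaling to a common sum.

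The other 3 lines were mixed. In H1299, 4 genes were higher (background 43.4%), 3 of them beyond counting error (background 28.5%), and 2 were lower (background 32.2%), both beyond it (background 21.5%). In PC9, 3 were higher (background 51%), 2 beyond counting error (background 22.7%), and 3 lower (background 42.9%), 1 beyond it (background 20.6%). In H1792, 4 were higher (background 51.6%), 2 beyond counting error (background 26.8%), and 2 lower (background 41.4%), both beyond it (background 23.4%). The higher genes of PC9 and of H1792 include BTNL9, which had 0 reads in Mock and 3 after DAC in each. After rescaling to a common sum, BTN3A1 changed sign in PC9 (0.15) and BTN3A2 in H1792 (-0.08). BTNL9 changed sign in H1299 after quantile normalization (-0.01). BTN2A1 and BTN2A2 were higher beyond counting error in all 3 of these lines. Values of single lines rest on 1 library per treatment and have no replicate check.

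The balance between the partners BTN2A1 and BTN3A1 was looked at because their log2 fold changes had been seen to differ in sign, so it is given as a description with no test. The FPKM ratio of BTN2A1 to BTN3A1 went from 6.21 to 8.91 in CL1-0, from 3.53 to 6.76 in CL1-5, from 1.47 to 2.13 in PC9, from 3.72 to 8.20 in H1299 and from 0.841 to 1.27 in H1792. A549 was the only line with a smaller ratio after DAC, at 2.39 and a log2 change of -0.33. Its log2 change was 0.56 ± 0.56 over 5 lines (SD, n = 5) and 0.57 ± 0.50 over 6 lines (SD, n = 6). A ratio within a library is unchanged when the whole library is multiplied by a common factor, but quantile normalization can change it. The ratio does not say which of the genes moved.

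Summed FPKM of the BTN3A trio was 27.4 in Mock H1792 and 3.95 in Mock CL1-0, with the other 4 lines between 4.99 and 13.4. It was lower after DAC in 5 lines, such as 10.1 to 6.68 in CL1-5 and 13.4 to 9.93 in H1299, and higher in A549, at 4.99 and 6.39. BTN3A2 made up 34.8% to 43.8% of the sum in Mock. In H1299 that share went from 35.8% to 50.1%, a step of 14.4 percentage points, while the steps in the other 5 lines lay between -6.77 (A549) and 4.54 (H1792). The mean step over 5 lines was 0.725 ± 8.35 percentage points (SD, n = 5, p = 0.812, exact two-sided sign-flip permutation test). Without H1299 it was -2.69, and the H1299 step thus set the sign of the mean.

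**Figure D3:**
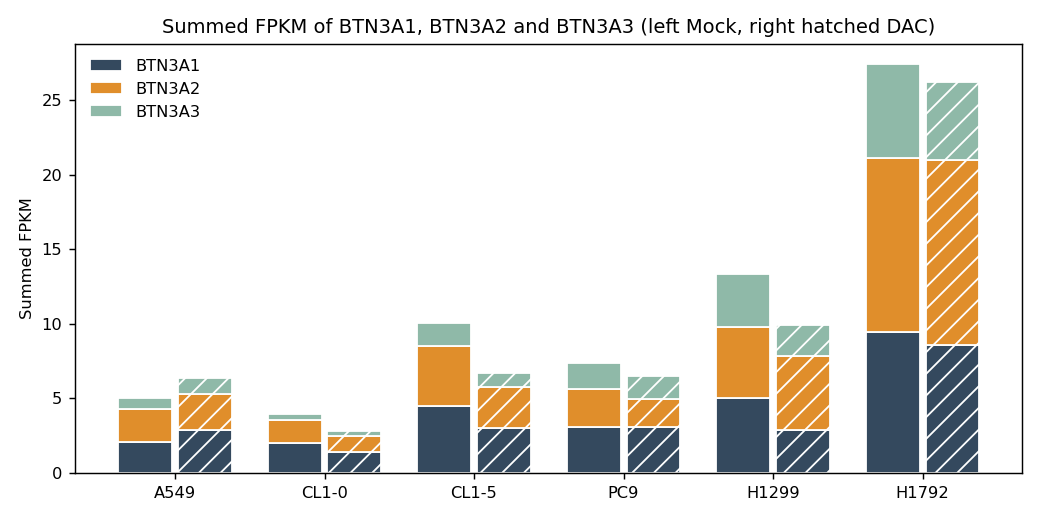
Summed FPKM of BTN3A1, BTN3A2 and BTN3A3 (vertical axis, starting at 0) in each line (horizontal axis), with Mock on the left and DAC hatched on the right, 1 library per bar and colours for the 3 genes. H1792 reaches 27.4 in Mock, and the DAC bar is lower than the Mock bar in every line but A549.

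Genes known to act on BTN3A genes showed other values than the cluster. For NLRC5, the class I transactivator, FPKM went from 0.339 to 1.11 in A549, from 0.846 to 2.50 in CL1-5, from 1.37 to 2.78 in PC9 and from 1.63 to 2.45 in H1792. It was lower in H1299, at 0.528 and 0.394, and stood at 0.198 and 0.169 in CL1-0. Its log2 fold change over 5 lines was 0.68 (standard error 0.33, adjusted p = 0.438, limma). RFX5, which binds the X box, stayed near its Mock level with a log2 fold change of 0.08 (adjusted p = 0.779, limma). Of the 9 genes of the X box and CCAAT box machinery, 8 were tested, with a median log2 change of 0.04 (-0.00 after quantile normalization and -0.02 over 9 genes with H1792 included) and none past the adjusted threshold. CREB1, at 0.31, and RFXANK, a subunit of the RFX complex, at -0.40, passed an unadjusted p under 0.05 over the 5 lines. H1792 ran the other way for both, and with it included they stood at 0.19 (unadjusted p = 0.228, limma) and -0.22 (unadjusted p = 0.268, limma), and neither passed without A549.

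All 10 genes of the interferon list had a log2 change above 0, also after both other scalings, with a median of 0.89 beside 0.07 over all genes. None passed the adjusted threshold (1 did with voom) and 5 were higher at an unadjusted p under 0.05 (background 8.07%), but 1 was when either A549 or CL1-5 was left out. ISG15, a ubiquitin-like interferon product, was at the top with 1.94 and IRF2, a repressor of interferon genes, at the bottom with 0.11. IRF1, an interferon-induced activator, went from an FPKM of 7.92 to 33.4 in H1299, from 2.75 to 7.50 in CL1-5, from 1.09 to 2.45 in PC9, from 2.27 to 3.36 in A549 and from 5.28 to 9.90 in H1792, with 1.27 and 1.39 in CL1-0 (log2 fold change 1.05, standard error 0.27, adjusted p = 0.254, limma).

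CL1-5 shows the contrast within a single pair of libraries. ISG15 went from an FPKM of 114 to 1062, IRF1 and NLRC5 were higher by log2 changes of 1.41 and 1.46, and BTN3A1, BTN3A2 and BTN3A3 were lower by log2 changes of -0.55, -0.53 and -0.74. In A549, ISG15 went from 2.48 to 67.5 and NLRC5 had a log2 change of 1.46, and there all 3 BTN3A genes were higher, at 0.45, 0.11 and 0.59. In H1299, IRF1 was higher by 2.06 and NLRC5 lower by -0.35, with BTN3A1 at -0.79 and BTN3A2 at 0.06. High interferon genes thus went with lower BTN3A levels in CL1-5 and with higher ones in A549, and no relation over lines was tested.

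**Figure D4:**
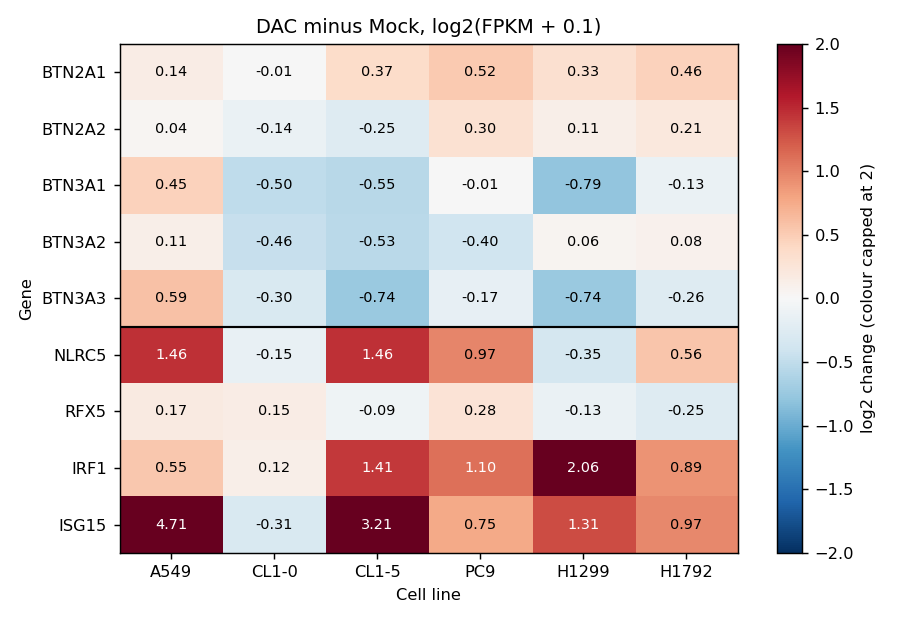
Change from Mock to DAC on the log2(FPKM + 0.1) scale (numbers and colour, red higher and blue lower, colour capped at 2) of the 5 cluster genes above the line and of NLRC5, RFX5, IRF1 and ISG15 below it, by cell line. ISG15 stands at 4.71 in A549 and 3.21 in CL1-5, while the BTN3A rows are above 0 in A549 and below 0 in CL1-5.

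Proteins that act with the butyrophilins in phosphoantigen sensing showed no common change. RHOB, a small GTPase that associates with BTN3A1, had a log2 fold change of 0.04 (adjusted p = 0.937, limma), and its FPKM ranged from 24.2 to 155 in Mock. PPL, which encodes the cytolinker periplakin and binds BTN3A1, was at 0.48 (adjusted p = 0.599, limma). Its FPKM went from 1.92 to 4.14 in A549, 0.805 to 1.76 in CL1-0, 0.773 to 1.97 in CL1-5 and 15.7 to 21.8 in PC9, and from 4.86 to 1.75 in H1299. Of the 4 partner genes, ABCA1, a lipid transporter linked to phosphoantigen export, had the largest log2 change at 0.84 and MAP4, a microtubule-associated protein, the smallest at -0.02. Over 6 lines ABCA1 was higher in 3 and lower in 3, each beyond counting error. Among 9 genes of the mevalonate pathway and its branches, which make the endogenous phosphoantigen, 3 were above 0 and 6 below, with a median of -0.08 (6 above and 3 below after rescaling to a common sum). PMVK, phosphomevalonate kinase, was lowest at -0.54 (unadjusted p = 0.00585, adjusted p = 0.256, limma). H1792 ran the other way for PMVK, with FPKM going from 16.1 to 19.1, and the log2 change was -0.41 with it included.

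Relatives outside the group were mostly silent. Of 9 other butyrophilin family symbols, 7 were in the table and 3 passed the filter, BTN2A3P, MOG and ERMAP, with log2 changes of -0.00, 0.48 and -0.31 and none past either threshold. BTN1A1, the milk-fat butyrophilin next to the cluster, had a mean FPKM of 0.0111 in Mock and 0.0304 after DAC over 6 lines. BTNL3 and BTNL8, the pair sensed by γδ T cells in the gut, had mean Mock FPKM of 0.0196 and 0.00149. BTN2A3P, a pseudogene between BTN3A1 and BTN3A3, went from 0.257 to 0.606 in A549 and from 1.65 to 0.937 in CL1-5. MOG, a myelin glycoprotein of the same family, went from 1.12 to 5.60 in H1299 and had at most 12 reads in any library of the other lines.

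Genes with the most similar level over the 12 libraries differed between the families. For BTN2A1 they were SCARF2 (Pearson r 0.96), HOXB2 (0.95) and TPMT (0.94), among 13357 genes whose FPKM averaged 1 or more. For BTN2A2 they were ZNF527, ZBTB8A and ENSG00000267053 (0.97, 0.97 and 0.96). BTN3A1 was closest to FCHSD2, ABL1 and AIG1 (0.97, 0.93 and 0.93), BTN3A2 to CDH2, P2RY1 and DLGAP4 (0.95, 0.95 and 0.95), and BTN3A3 to P2RY1, MAP3K5 and PRKCE (0.96, 0.95 and 0.94). BTNL9 was closest to IRX2, RIMS4 and BARX1 (0.98, 0.98 and 0.97). The members themselves were left out, libraries pair by line, and with 6 lines many genes reach such values.

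Open chromatin covered the start of each cluster gene in 8 of 8 peak lists, and the start of BTNL9 in none. The peak over the start of BTN2A2 was 317 to 1289 bp wide and that of BTN3A1 413 to 769 bp. In Mock A549 they lay at 26383233 to 26383631 and 26402416 to 26402835 on chromosome 6 of GRCh37. BTNL9 had its nearest peak 2051 to 2661 bp before the start. A peak covered the whole X box of BTN3A2 and of BTN2A1 in 8 lists and that of BTN3A3 in 7. Over the cluster and the 3000 bp before it, the lists hold 7 to 10 peaks, and of the 7 Mock peaks in A549 all 7 overlap a DAC peak. New after DAC were 0 peaks in A549, 1 in H1299, 1 in the library labelled CL1-5 and 2 in that labelled PC9, and lost after DAC were 0, 1, 2 and 2 in the same order.

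Fold enrichment over background cannot be compared between lists directly, because the median DAC to Mock ratio over all genes was 0.850 to 0.947. Each gene was therefore ranked by its strongest peak within 3000 bp of the start among 14485 genes of the same list, and the rank is given as a percentile, where 100 is the most enriched. BTN2A2 lay between 62.6 and 92.9, BTN3A1 between 55.7 and 87.7, BTN2A1 between 51.9 and 76.5 and BTN3A2 between 37.1 and 75.8. Their order changed from list to list, and BTN2A2 stood below BTN3A1 and BTN3A2 in Mock H1299 and in the Mock library labelled CL1-5. BTN3A3 lay between 18.2 and 58.0 and BTNL9 between 17.2 and 29.1.

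BTN3A1 ranked lower after DAC in 4 of 4 lines, as did 13.3% of all ranked genes. Its percentile went from 57.2 to 55.7 in A549, from 69.7 to 56.9 in the library labelled CL1-5, from 87.7 to 67.6 in that labelled PC9 and from 82.2 to 63.2 in H1299. The mean change was -13.3 ± 8.52 percentile points (SD, n = 4), with p = 0.125 in an exact two-sided sign-flip permutation test, the smallest that 4 lines allow. Ranked by peak width instead, it was lower in 3 of 4 lines with a mean of -4.86 (p = 0.625, exact). In H1299 the lower rank stood beside a lower FPKM, whereas in A549 the FPKM was higher.

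BTN2A1 ranked lower in 3 of 4 lines, at a mean change of -10.5 ± 11.5 percentile points (SD, n = 4, p = 0.25, exact; -16.1 without H1299), although its FPKM was higher in all 4 of these lines. BTN3A2 went from 70.1 to 52.6 in A549, 75.8 to 44.5 in the library labelled CL1-5 and 74.5 to 47.3 in H1299, and from 37.1 to 64.5 in that labelled PC9, a mean of -12.2 ± 27.0 (SD, n = 4, p = 0.5, exact), or -25.4 without the labelled PC9 pair, -5.81 without the labelled CL1-5 pair and -7.18 without H1299. Its peak widened from 421 to 1191 bp and from 504 to 1511 bp where the labelled CL1-5 and H1299 ranks were lower, and narrowed from 1254 to 608 bp where the rank was higher, and the part of width in these ranks was not tested. BTN3A3 had a mean difference of -5.55 ± 15.1 (SD, n = 4, p = 0.75, exact), of which H1299 carried the largest step, from 58.0 to 31.6. Without H1299 the mean of BTN3A3 was 1.39. BTN2A2 and BTNL9 had mean differences of 3.87 ± 18.1 (SD, n = 4, p = 0.75, exact) and 2.22 ± 4.76 (SD, n = 4, p = 0.5, exact).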

How the data were processed

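mRNA-seq (12 libraries) and Omni-ATAC-seq (8 libraries) were grouped by cell line and treatment as labelled, with 1 library each. Cell lines are the replicates. The members, gene lists and tests were chosen with earlier results of these data known.

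For mRNA-seq the authors used RSEM with bowtie2 on hg19 by the methods (the submitters' notes list TopHat2 2.1.1), counted trimmed reads per gene by GenomicAlignments, and deposited FPKM from DESeq2 1.24.0. Whether the stranded libraries were counted by strand is not given in the sources used here. The deposited table also holds a mean normalized signal per gene, which gave the whole reads behind each FPKM (100% of values within 0.1 of a whole number), and the authors' own fold changes and p-values, which were not used. For Omni-ATAC-seq the authors aligned with BWA 0.7.17-r1188, removed duplicates and called broad peaks by MACS2 2.2.5 (shifted for the transposase) in each library, which they annotated with ChIPseeker 1.20.0. The deposited lists give per peak a score, a fold enrichment (a ratio) and −log10 p- and q-values. Their depth is unknown. Value columns that map to no sample numbered 0.

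Here, genes whose FPKM averaged 0.1 or more over the 10 libraries of 5 lines were fitted on the log2(FPKM + 0.1) scale with limma 3.58.1 (R 4.3.3), with a line block, an intensity trend and Benjamini-Hochberg adjustment at 0.05. Deviations of Mock and DAC libraries of a line from the treatment means correlated at 0.731 to 0.900, against at most 0.115 between lines, and both grew from the same line, so the line is the pair. Counting intervals are exact conditional 95% intervals and cover counting error only. Single values were tested by exact sign flips over lines (Python 3.11.15, numpy 2.4.6). The fit was tested on simulated data. Genes named are the 6 members, the list counts with their largest and smallest genes, NLRC5, RFX5, IRF1, RHOB, PPL, the 3 most similar genes per member and neighbours within 100 kb, apart from some genes that are not reported here. Other genes, such as ISG15 within lines, and individual lines were picked after their values were seen. As alternatives, H1792 was included, the block dropped, and other pseudocounts, filters, scalings and peak rankings were used, and each line was left out in turn.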

Additional observations from a re-analysis of the deposited data

Results flagged for a closer look

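Among 18 groups of 6 lines tested for a value far from the rest (Dixon's 95% limit), 8 held one. BTN2A2 and BTN3A2 each account for 2 of them, in the same line in Mock and after DAC. Chance passes this limit in about 1 of 20 groups of independent, normally distributed values. FPKM was not log-transformed here, and the groups share lines and correlated genes, so that rate cannot be set beside the 8. BTN2A2 stood apart in H1299, with an FPKM of 8.83 in Mock (next line 3.11) and 9.57 after DAC (next line 2.996). BTN3A2 stood apart in H1792, at 11.7 in Mock (next line 4.78) and 12.4 after DAC (next line 4.98). BTN3A1 and BTN3A3 did so in H1792 after DAC, at 8.60 (next line 3.05) and 5.24 (next line 2.09). BTNL9 after DAC was at 4.07 in CL1-0 (next line 1.27). The change of BTNL9 in CL1-5, at -0.56 on the log2(FPKM + 0.1) scale, lay apart from the other 5 lines, of which the nearest was 0.29. That nearest value is of H1792, with 0 reads in Mock and 3 after DAC. No other line or gene reached the limit.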

How the results depend on the processing

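No member passed the adjusted threshold under any of the 15 alternatives, and in 87 of 90 cases the direction over the lines was that of the reported fit. The exceptions are BTN2A2, at a log2 fold change of -0.12 after quantile normalization and between -0.061 and 0.078 with each line left out. Scaling moved the median of all genes from 0.07 to 0.17 (common sum) and to -0.04 (quantile), with 58.8%, 70.9% and 44.9% of genes above 0. The number of genes called higher over all genes, 27, was 53 with H1792 included, 10 with no replicate block, 0 at a pseudocount of 1, 2 with no filter, 17 after quantile normalization, 6 with no trend and 0 to 22 with each line left out (0 without A549 or CL1-5, 5 without CL1-0, 12 without PC9). An alternative added after seeing the data, voom in limma on whole reads, called 178 higher and 1 lower. The reads of H1299 were not halved for voom, unlike for the counting intervals. The number called lower was 0 to 1 with each line left out. The block changed no call of a member. Another count test and voom with TMM scaling were not run.

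The BTN3A2 share of the BTN3A sum changed by -2.69 to 2.60 percentage points with each line left out. Ranking promoters by peak width turned the mean percentile change of BTN2A1 to 7.97, of BTN2A2 to -18.1 and of BTN3A2 to 13.1, and brought that of BTN3A1 to -4.86. BTNL9 turned to -0.14 with equal numbers of peaks. Its nearest peak lay 2051 to 2661 bp before the start, so a window of 1000 bp held none in any list. The mean of -1.14 in that window is a shift in the shared rank of all genes without a peak and describes no change of BTNL9. With each line left out BTN2A2 ranged from -3.91 to 10.6, BTN3A2 from -25.4 to -5.81 and BTN3A3 from -9.82 to 1.39. The cause of these changes was not tested. With 1 library per line and treatment, changes of single lines have no replicate check, and BTNL9 in PC9, H1792 and H1299 rests on few reads.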

Other observations

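The neighbours of the cluster within 100 kb are histone genes on one side and BTN1A1 and HMGN4 on the other. H3C8 and H4C8, replication-dependent histone genes, had mean FPKM of 0.421 and 1.19 in Mock and 1.60 and 7.43 after DAC over 6 lines. Both were higher in 6 of 6 lines, where 15.8% of all genes were higher in at least 5 of 6. H2BC10 stood at 6.75 and 20.9 and was higher in 3 of 6 lines. HMGN4, a nucleosome-binding protein gene, was at 73.0 and 60.4 and was higher in 1 of 6 lines. These values were not tested, and they were chosen by position.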
